A study of Mus musculus with 10 samples.

Results

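Immunity-related GTPases (IRGs) are interferon-inducible GTPases of the mouse that act on intracellular membranes. The 7 genes described here, Irgm1, Irgm2, Igtp, Iigp1, Tgtp1, Tgtp2 and Ifi47, were chosen by an exact match of their gene symbols among the 54532 genes of the deposited table. In cells exposed to interferon, effector IRGs with an intact GTP-binding lysine motif (GKS) load onto the vacuoles that shelter intracellular parasites and bacteria and break them open. Regulator IRGs with a methionine in that motif (GMS) sit on the membranes of organelles and keep the effectors in the inactive state there, and the conjugation machinery of autophagy directs the effectors to the vacuole. Guanylate-binding proteins (GBPs), another interferon-inducible GTPase family, take part in the same defence.

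Bulk RNA was measured in obstructed kidneys of male C57BL/6 mice of genotype WT, which were 8 weeks old at surgery. In each mouse the left ureter was tied at 2 points, which is called unilateral ureteral obstruction (UUO), and the kidney was taken 14 days later. One group received dimethyl malonate (DMM), a cell-permeable precursor of the succinate dehydrogenase inhibitor malonate, by intraperitoneal injection at 40 mg/kg every other day. The control group received PBS in its place, so that obstruction was common to both groups. Each group had 5 libraries, here called PBS1 to PBS5 and DMM1 to DMM5. The methods state 5 independent replicates, and the labels do not say that each library is a separate animal, so that p-values measure the spread between samples. The comparison asked how DMM changed the transcriptome of the obstructed kidney.

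Total counts were between 16457495 and 18078777 in PBS libraries and between 15722527 and 19475833 in DMM libraries, with medians of 17825223 and 16794390. The lowest count of any of the 7 genes in any library was 129, for Tgtp2, and all 7 passed the filter on low counts in both sets of libraries below. Some libraries stood apart. DMM4 had a count on 20029 genes, against 22898 to 24083 in the other 9 libraries, and its TMM factor was 0.852, against 0.981 to 1.05. The chi-square per degree of freedom between DMM4 and the other DMM libraries, over genes, was 164 to 188, against 9.95 to 88.9 for the other pairs within a group. PBS3 and DMM1 had a weight of 0 in the group means that the authors deposited, while the other 8 libraries had weights of 0.227 to 0.271. Calls and fold changes of the 7 genes, and the counts of calls in the lists, are therefore given over all 10 libraries and over those 8. Ranks, the fold change of Tgtp1 and Tgtp2 summed and most values of other single genes are given over the 8 alone. Since the smaller set lies within the larger, neither checks the other.

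All 7 IRG genes fell in DMM kidneys over the 8 libraries. A gene was called when edgeR gave an adjusted p below 0.05 and a change of more than 1.5-fold. By that rule 7 of 7 IRG genes were called lower, against 590 of 16550 tested genes (3.56%), with 452 called higher (2.73%). DESeq2 called 7 of 7 lower, against 911 of 30116 genes (3.02%), with 749 higher (2.49%). In 7 of 7, every DMM library was below every PBS library, which held for 1760 of 16550 tested genes (10.6%). The median log2 fold change of the 7 was -2.60, against 0.02 over all tested genes. In bulk samples, fewer cells of a type and less RNA per cell cannot be told apart.

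Over all 10 libraries, edgeR called 0 of 16505 genes lower (0%) and 0 higher (0%), with adjusted p of 0.378 and above. The IRG genes were thus 0 of 7 called by edgeR and 0 of 7 by DESeq2, which called 36 of 30751 genes lower (0.117%) and 14 higher (0.0455%). Across DESeq2 and other edgeR settings on all 10, each gene's lowest adjusted p was between 0.0505 (Igtp) and 0.0766 (Tgtp2). With an unadjusted p below 0.05 and a change of more than 1.5-fold, edgeR put 7 of 7 lower, against 678 of 16505 genes (4.11%). Their median log2 fold change was -1.68, against 0.02 over all tested genes. Leaving out DMM1 alone gave 7 of 7 called lower, against 436 of 16760 genes (2.6%), with 50 genes called higher (0.298%). Leaving out any other of the 10 libraries gave 0 of 7. Over the 8 libraries, leaving out each in turn gave 7 of 7 every time, while the number of all genes called lower ranged from 276 without PBS5 to 1281 without DMM4 and the number called higher from 131 to 1129. Both numbers moved by more than 1.5 times without any 1 of the 8 but DMM2.

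In DMM1, each of the 7 genes stood near its level in PBS kidneys, at 0.855 (Iigp1) to 0.962 (Tgtp2) times the median of the 5 PBS libraries. DMM2 to DMM5 were below all 5 PBS libraries in each of them. The plot of the 7 genes in CPM, counts scaled to a common library size by TMM, shows this split within the DMM group.

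**Figure D1:**
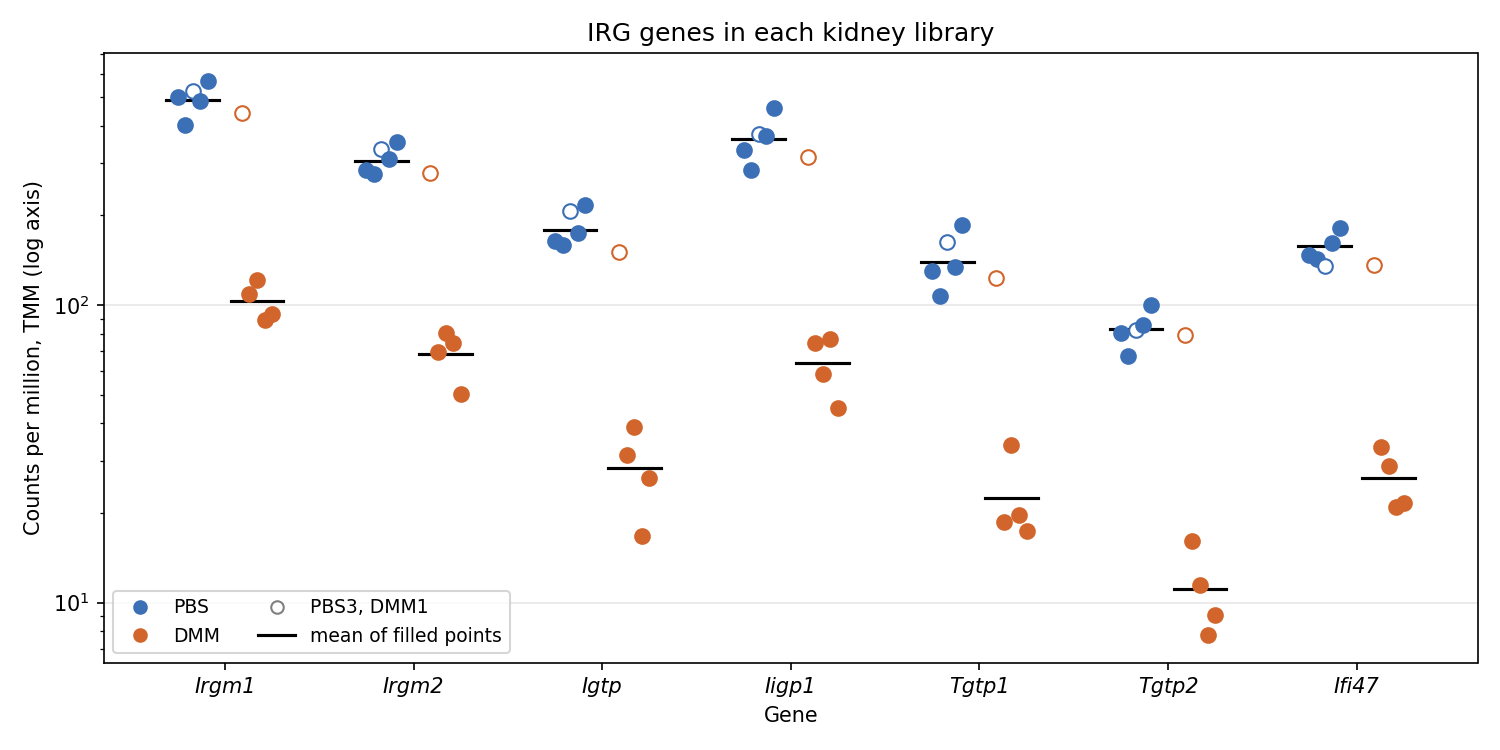
Level of each of the 7 IRG genes in CPM (TMM-scaled counts, log axis) in 5 PBS (blue) and 5 DMM (orange) kidney libraries. Each point is a library, open points are PBS3 and DMM1, and bars are means of the 4 filled points of a group. For Irgm1 the filled points have means of 488 CPM in PBS and 103 CPM in DMM kidneys, and DMM1 is at 442 CPM.

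The GMS regulators are Irgm1, Irgm2 and Igtp, the last also called Irgm3. Irgm1 (ENSMUSG00000046879, chr11:48861968-48871683, minus strand) acts at the Golgi apparatus, mitochondria and lysosomes, and is the regulator best known for its ties to autophagy. It was measured at 499.8, 401, 522, 483 and 567 CPM in PBS1 to PBS5 and 442, 109, 121, 88.9 and 93.1 CPM in DMM1 to DMM5. DMM2 to DMM5 were low and DMM1 lay within the PBS range. Irgm1 fell over the 8 libraries from 488 ± 68.2 CPM to 103 ± 14.8 CPM (SD, n = 4 each), with a log2 fold change of -2.24 ± 0.16 (SE) and an adjusted p of 0.000123 by edgeR, which is 4.74-fold lower. Over all 10 the log2 fold change was -1.53 ± 0.43 (SE) with an adjusted p of 0.378 by edgeR, and without DMM1 it was -2.27 ± 0.15 (SE) with 3.42e-05.

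Irgm2 (ENSMUSG00000069874, chr11:58199618-58222782, plus strand) encodes a regulator of the Golgi apparatus. Its level was 284, 276, 334, 309 and 353 CPM in PBS1 to PBS5 and 278, 69.3, 80.4, 74.8 and 50.4 CPM in DMM1 to DMM5. The 4 DMM libraries other than DMM1 were again low, and DMM1 exceeded only PBS2 among PBS libraries. Irgm2 fell from 305 ± 34.4 CPM to 68.7 ± 13.0 CPM (SD, n = 4 each) over the 8 libraries, with a log2 fold change of -2.15 ± 0.17 (SE) and an adjusted p of 0.000189 by edgeR, or 4.45-fold lower. Its log2 fold change over all 10 was -1.49 ± 0.42 (SE) with an adjusted p of 0.378 by edgeR, against -2.18 ± 0.16 (SE) with 4.80e-05 without DMM1.

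Igtp (ENSMUSG00000078853, chr11:58199556-58207591, plus strand) encodes the regulator of the endoplasmic reticulum and of lipid droplets. It was at 164, 159, 207, 174 and 217 CPM in PBS1 to PBS5 and 151, 31.4, 38.8, 16.8 and 26.1 CPM in DMM1 to DMM5. DMM4 was the lowest library, and DMM1 was just below the lowest PBS library, PBS2. Igtp fell over the 8 libraries from 179 ± 26.4 CPM to 28.3 ± 9.26 CPM (SD, n = 4 each), with a log2 fold change of -2.66 ± 0.25 (SE) and an adjusted p of 0.000523 by edgeR, or 6.32-fold lower. All 10 libraries gave -1.80 ± 0.52 (SE) with an adjusted p of 0.378 by edgeR, and -2.71 ± 0.24 (SE) with 0.000122 without DMM1.

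The GKS effectors are Iigp1 (Irga6), Tgtp1 and Tgtp2 (both Irgb6) and Ifi47 (Irgd). Iigp1 (ENSMUSG00000054072, chr18:60376029-60392627, plus strand) is the effector whose structure and loading onto the Toxoplasma vacuole are best studied. It had 332, 284, 376, 369 and 458 CPM in PBS1 to PBS5 and 316, 74.4, 58.5, 76.9 and 44.9 CPM in DMM1 to DMM5. PBS5 was the highest library and DMM5 the lowest, and DMM1 was above PBS2 and below the other PBS libraries. Iigp1 fell from 361 ± 73.4 CPM to 63.7 ± 14.9 CPM (SD, n = 4 each) over the 8 libraries, with a log2 fold change of -2.50 ± 0.22 (SE) and an adjusted p of 0.000344 by edgeR, which is 5.67-fold lower. The 10 libraries gave a log2 fold change of -1.67 ± 0.49 (SE) with an adjusted p of 0.378 by edgeR, and without DMM1 -2.52 ± 0.20 (SE) with 7.48e-05.

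Tgtp1 (ENSMUSG00000078922, chr11:48985327-48994172, minus strand) and Tgtp2 (ENSMUSG00000078921, chr11:49057194-49064206, minus strand) are near copies of a gene first described as a T cell-specific GTPase. Tgtp1 counts came to 129.7, 107, 163, 134 and 186 CPM in PBS1 to PBS5 and 123, 18.7, 33.8, 19.7 and 17.4 CPM in DMM1 to DMM5. DMM3 was the highest of the low DMM libraries, and DMM1 was above PBS2 and below the other PBS libraries. Tgtp1 fell over the 8 libraries from 139 ± 33.3 CPM to 22.4 ± 7.67 CPM (SD, n = 4 each), with a log2 fold change of -2.64 ± 0.26 (SE) and an adjusted p of 0.000725 by edgeR, or 6.21-fold lower. Over all 10 its log2 fold change was -1.76 ± 0.53 (SE) with an adjusted p of 0.378 by edgeR, and without DMM1 it was -2.69 ± 0.25 (SE) with 0.000179.

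Tgtp2 counts came to 80.3, 67.6, 82.2, 85.9 and 99.7 CPM in PBS1 to PBS5 and 79.1, 16.1, 11.5, 7.79 and 9.12 CPM in DMM1 to DMM5. DMM2 was the highest of the low DMM libraries and DMM4 the lowest, while DMM1 lay within the PBS range. Tgtp2 fell over the 8 libraries from 83.4 ± 13.3 CPM to 11.1 ± 3.67 CPM (SD, n = 4 each), with a log2 fold change of -2.90 ± 0.24 (SE) and an adjusted p of 0.000246 by edgeR, or 7.49-fold lower. Over all 10 the log2 fold change of Tgtp2 was -1.75 ± 0.59 (SE) with an adjusted p of 0.385 by edgeR, against -2.90 ± 0.22 (SE) with 5.57e-05 without DMM1.

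Ifi47 (ENSMUSG00000078920, chr11:49076587-49096974, plus strand) encodes Irgd, an effector found with the others on the vacuole. It was at 147, 142, 135, 162 and 182 CPM in PBS1 to PBS5 and 136, 33.3, 28.8, 21.02 and 21.7 CPM in DMM1 to DMM5. DMM4 and DMM5 were the lowest, PBS3 was the lowest PBS library, and DMM1 was just above it. Ifi47 fell over the 8 libraries from 158 ± 17.8 CPM to 26.2 ± 5.89 CPM (SD, n = 4 each), with a log2 fold change of -2.60 ± 0.18 (SE) and an adjusted p of 0.000123 by edgeR, or 6.05-fold lower. For Ifi47 the value over all 10 libraries was -1.68 ± 0.49 (SE) with an adjusted p of 0.378 by edgeR, and -2.55 ± 0.17 (SE) with 3.55e-05 without DMM1.

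Ordered by the size of the fall over the 8 libraries among all 16550 tested genes, Tgtp2 ranked 35, Igtp 52, Tgtp1 56, Ifi47 59, Iigp1 65, Irgm1 98 and Irgm2 118. Irgm1 and Irgm2 thus had the smallest log2 changes of the 7, while Igtp, the other GMS regulator, came next after Tgtp2. The difference between Irgm2 and Tgtp2, at -2.15 ± 0.17 and -2.90 ± 0.24 (SE), was not tested. Ordered by p, Ifi47 ranked 17, Irgm1 21, Irgm2 35, Tgtp2 45, Iigp1 49, Igtp 61 and Tgtp1 68.

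Levels of different genes were compared by FPKM, the deposited count divided by gene length and by a constant of the library. In PBS kidneys (mean ± SD, n = 5), Iigp1 was highest at 116 ± 20.5 FPKM and ranked first in all 5 PBS libraries. Igtp at 90.5 ± 13.0 FPKM, Irgm1 at 84.5 ± 10.5 FPKM and Irgm2 at 83.7 ± 8.86 FPKM came next, with ranges that overlapped. Igtp was above Irgm2 in all 5 PBS libraries, while the place of Irgm1 among these genes varied. Ifi47 at 61.8 ± 7.58 FPKM, Tgtp1 at 44.6 ± 9.59 FPKM and Tgtp2 at 28.1 ± 3.95 FPKM followed in that order in all 5. In DMM2 to DMM5 (mean ± SD, n = 4), the same 4 genes had the highest means, with Iigp1 at 20.3 ± 4.69 FPKM, Irgm2 at 18.5 ± 3.49 FPKM, Irgm1 at 17.6 ± 2.57 FPKM and Igtp at 13.9 ± 4.58 FPKM, and their ranges overlapped. Ifi47 was at 10.5 ± 2.38 FPKM, Tgtp1 at 6.95 ± 2.39 FPKM and Tgtp2 at 3.77 ± 1.24 FPKM, and Tgtp1 and Tgtp2 were the lowest of the 7 in each of these libraries. In DMM4, Ifi47 at 8.40 FPKM was above Igtp at 8.21 FPKM. DMM1 had Iigp1 at 101 FPKM and Tgtp2 at 26.8 FPKM, and Iigp1 first and Tgtp2 last, as in PBS kidneys.

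The 7 genes together took 0.171, 0.148, 0.182, 0.179 and 0.212 percent of all counts in PBS1 to PBS5. In DMM1 to DMM5 they took 0.156, 0.0355, 0.037, 0.026 and 0.0257 percent. Their summed level was 1637, 1439, 1821, 1717 and 2063 CPM in PBS1 to PBS5 and 1525, 352, 373, 306 and 263 CPM in DMM1 to DMM5. PBS5 was the highest library and DMM5 the lowest by this sum.

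To place the libraries on a common scale, each gene's log2 CPM was set against its mean over the 5 PBS libraries. This step alone brings the genes together in PBS kidneys, and the spread of the 7 genes was not compared between groups. The mean of the 7 was then -0.08, -0.25, 0.07, 0.00 and 0.27 in PBS1 to PBS5 and -0.17, -2.37, -2.30, -2.75 and -2.83 in DMM1 to DMM5. The gap between the highest and the lowest gene was 0.18, 0.29, 0.38, 0.16 and 0.21 in PBS1 to PBS5, 0.21 in DMM1 and 0.76, 0.88, 1.39 and 0.76 in DMM2 to DMM5. In DMM4 the lowest was Igtp at -3.44 and the highest Irgm2 at -2.05.

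**Figure D2:**
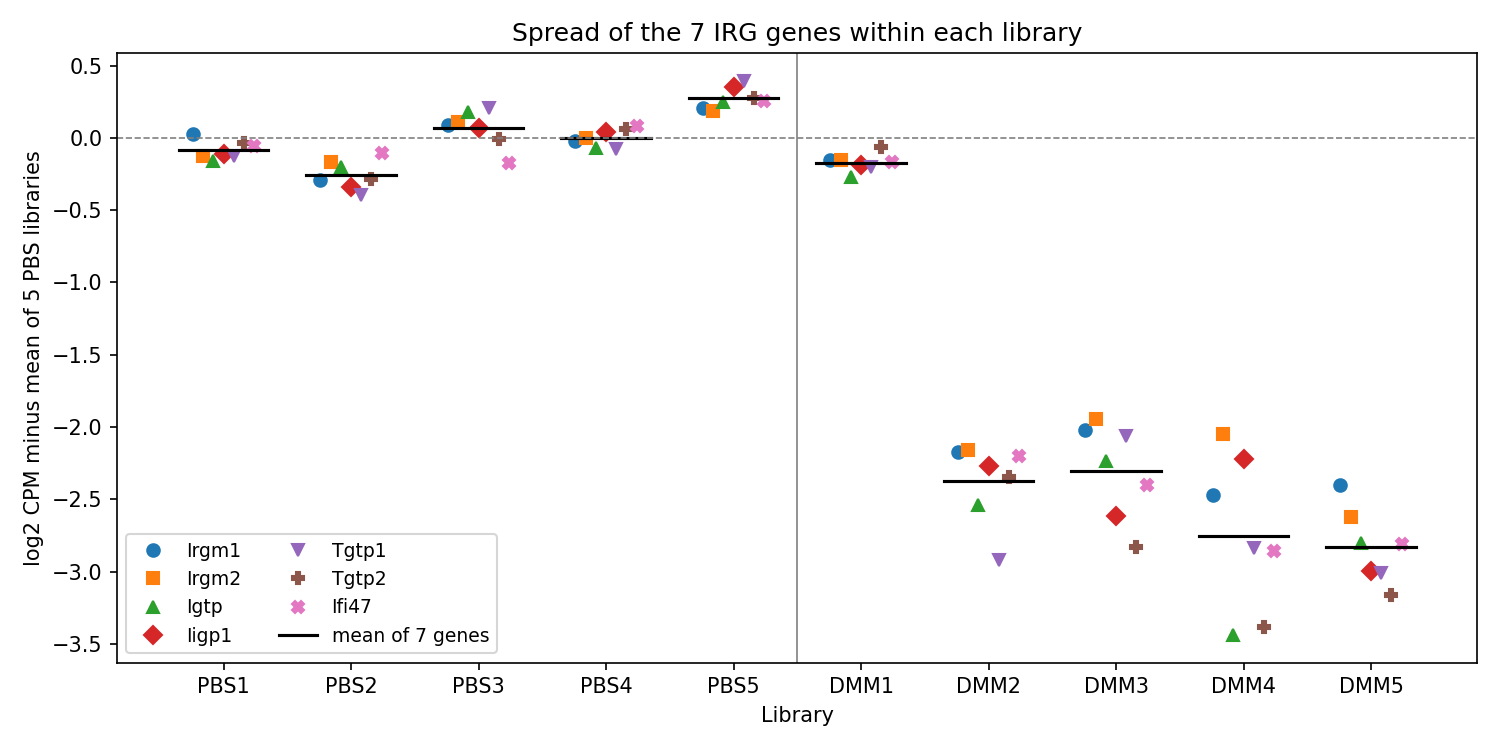
Level of each of the 7 IRG genes in each library, as log2 CPM minus the mean of the 5 PBS libraries (vertical axis, log2 units), by library (horizontal axis). Symbols are genes and bars are the mean of the 7, which is -0.17 in DMM1 and -2.83 to -2.30 in DMM2 to DMM5.

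The ratio of Irgm2 to Igtp counts, which no scaling between libraries changes, was 1.73, 1.73, 1.61, 1.78 and 1.62 in PBS1 to PBS5 and 1.84, 2.21, 2.07, 4.46 and 1.93 in DMM1 to DMM5. Each DMM library, DMM1 included, was above each PBS library. The mean log2 ratio was higher by 0.47 over all 10 libraries and by 0.55 over the 8. Without DMM4 the difference over the other 9 libraries was 0.24. Since the ratio was picked after the levels had been seen, no p is given for it.

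For Tgtp1 to Tgtp2, the other pair, the count ratio was 1.61, 1.59, 1.99, 1.56 and 1.87 in PBS1 to PBS5 and 1.56, 1.16, 2.94, 2.53 and 1.91 in DMM1 to DMM5. The groups overlapped, and both the highest ratio, in DMM3, and the lowest, in DMM2, were in the DMM group. The mean log2 ratio differed by 0.16 over all 10 libraries and by 0.28 over the 8. No direction is read from this difference, and no p is given here either.

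Several of the genes share sequence or position, which bears on what their counts hold. Among stretches of the annotated transcripts, 79.4% of Tgtp1's 50-base stretches, 70.3% of its 100-base stretches and 62.5% of its 150-base stretches also occurred in Tgtp2. Of Tgtp2's stretches, 85.8%, 76.8% and 68.4% occurred in Tgtp1. For Igtp the share found in Irgm2 was 11.8%, 5.16% and 0.739%. The share for Irgm1 with any other gene was 0.31% at 50 bases and 0% at 100 bases, and for Iigp1 with Gm4951 1.47% and 0%. Tgtp1 shared 5.64%, 4.0% and 2.42% with Gm12185 at 50, 100 and 150 bases, Tgtp2 4.88%, 1.23% and 0%, and Ifi47 2.54%, 0.561% and 0% with Olfr56. For Irgm2 the share with Igtp was 6.79%, 3.01% and 0.437%, and with all other genes together, Igtp included, 7.77%, 3.01% and 0.437%. How the authors assigned reads that match more than 1 gene is not stated. When the counts of Tgtp1 and Tgtp2 were summed as 1 gene, its log2 fold change over the 8 libraries was -2.73 with an adjusted p of 0.000225 by edgeR.

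All but Iigp1 lie on chromosome 11, at 2 loci. Irgm1, Tgtp1, Tgtp2 and Ifi47 lie between chr11:48861968 and 49096974, and Igtp and Irgm2 between chr11:58199556 and 58222782. Igtp and Irgm2 share 162 exonic bases, at chr11:58199618-58199779, through the Irgm2 transcript that starts there, while the other Irgm2 transcripts in GENCODE M21 start at 58215008 and 58215028. Tgtp1, Tgtp2 and Ifi47 lie within the span of the olfactory receptor gene Olfr56 (chr11:48978889-49135387, plus strand). Ifi47 is on the same strand as Olfr56, and Tgtp1 and Tgtp2 on the opposite one. Olfr56 had at most 211 counts in any library, against at least 348 for Ifi47. Ifi47 also overlaps the pseudogene Gm12188 on the minus strand, which had at most 14 counts, and Tgtp1 overlaps Gm12185, an IRG gene on its own strand. Irgm1 and Iigp1 overlap no other gene of the table. Whether counting took the strand into account is not stated.

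**Figure D3:**
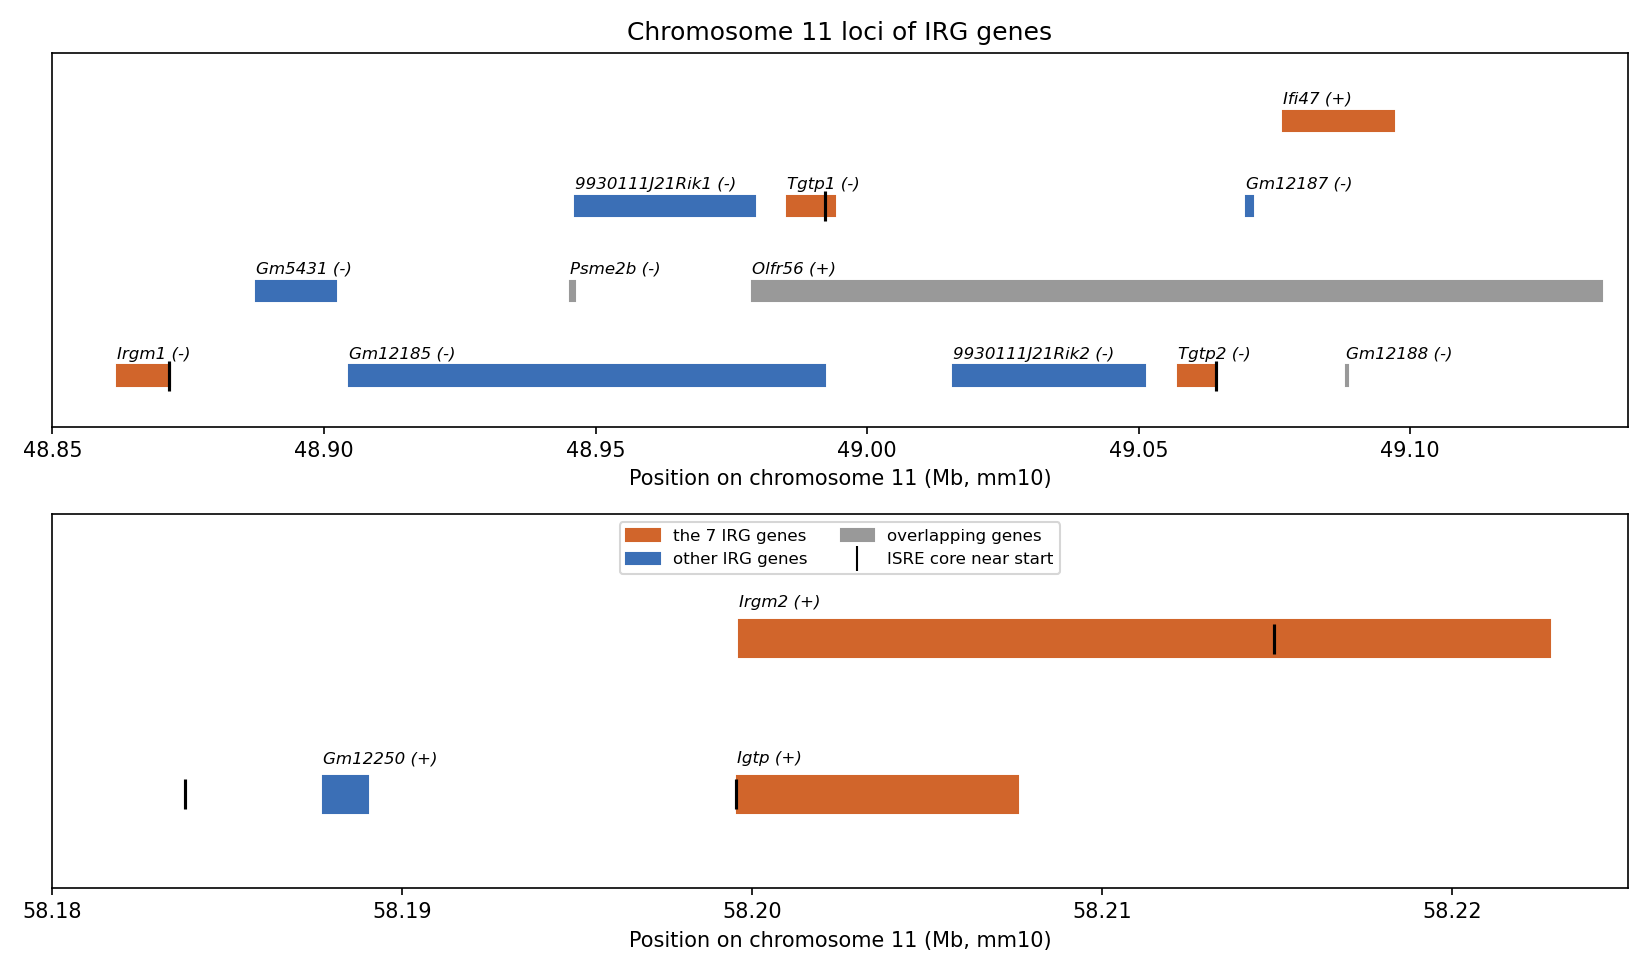
Gene spans on chromosome 11 (mm10, position in Mb) at the 2 loci, drawn to scale, with the strand after each name. Orange bars are the 6 IRG genes described here that lie on this chromosome, blue bars other IRG genes, grey bars other genes that overlap them, and black marks the middle of a 50-base stretch with an interferon-stimulated response element core. Marks are drawn for Irgm1, Irgm2, Igtp, Tgtp1, Tgtp2 and Gm12250 alone. The promoter windows of Gm12185 and 9930111J21Rik1 held this core as well but carry no mark. Olfr56 spans Tgtp1, Tgtp2 and Ifi47, and the span of Irgm2 covers all but the first bases of Igtp.

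Promoters of the 7 genes were read because the genes moved together. RefSeq promoter windows (GRCm38.p6), from 250 bases before to 50 after the start, matched 6 of the 7 by symbol, without Iigp1. They were searched on both strands for the core of the gamma-activated site (GAS, TTCNNNGAA). They were also searched for a core of the interferon-stimulated response element (ISRE, written as GAAA, any 2 bases, GAAA), which interferon regulatory factors bind. Of 32851 windows, 2726 (8.3%) held the GAS core, 1131 (3.44%) the ISRE core and 149 (0.454%) both. The ISRE core was in 5 of the 6 windows, those of Irgm1, Irgm2, Igtp, Tgtp1 and Tgtp2, and the GAS core in 4 of them, those of Irgm2, Igtp, Tgtp1 and Tgtp2. In these 4 the GAS core lay just before the ISRE core. The Ifi47 window held neither, and it covers the start at 49076587, while the other 4 Ifi47 transcripts in GENCODE M21 start between 49086700 and 49088264. Windows of Igtp and Irgm2 had 81.3% and those of Tgtp1 and Tgtp2 70.3% of their 300 bases identical in a global alignment, against 46.7 to 54.7% for the other pairs.

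The 50 bases around the matches are shown because 4 of them carry the same pair of motifs in the same order, 5′ to 3′ on the strand of the gene, with capitals for the GAS and ISRE cores. In Irgm1 the capitals are a pair of overlapping ISRE cores. The stretches lie at chr11:48871425-48871474 (minus strand) for Irgm1, chr11:58214883-58214932 (plus) for Irgm2, chr11:58199492-58199541 (plus) for Igtp, chr11:48992304-48992353 (minus) for Tgtp1 and chr11:49064263-49064312 (minus) for Tgtp2. They come from RefSeq, GRCm38.p6.
Irgm1: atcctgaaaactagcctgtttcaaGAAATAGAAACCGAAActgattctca
Irgm2: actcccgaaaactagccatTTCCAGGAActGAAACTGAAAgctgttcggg
Igtp: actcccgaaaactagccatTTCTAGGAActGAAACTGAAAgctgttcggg
Tgtp1: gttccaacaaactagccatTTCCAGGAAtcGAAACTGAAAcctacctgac
Tgtp2: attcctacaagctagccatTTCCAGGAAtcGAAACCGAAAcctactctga
The stretches of Irgm2 and Igtp had 49 of 50 bases in common without gaps, and those of Tgtp1 and Tgtp2 41 of 50. Irgm2 or Igtp with Tgtp1 or Tgtp2 had 35 to 37 of 50 in common, so the stretch was alike in all 4. Irgm1 had 26 to 32 of 50 in common with them. A match is a description of the letters, and binding of a factor was not measured.

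The table held 10 of the 11 other IRG gene symbols listed. The symbol Irgc was not among them, while Irgc1 was. Over the 8 libraries, 5 of the 8 tested were called lower by edgeR and 0 higher, with a median log2 fold change of -1.93. Over all 10 libraries 0 of 8 were called by edgeR, and 7 of 8 were lower by the unadjusted rule. DESeq2 called 1 of them over all 10, Gm12250, with a log2 fold change of -1.79 and an adjusted p of 0.0446, and without DMM1 edgeR called 5 of 8. Over the 8 libraries DESeq2 called 7 of 10 lower.

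Gm12250, which encodes the effector Irgb10, was at 36.0, 34.5, 32.3, 41.2 and 48.3 CPM in PBS1 to PBS5 and 31.4, 6.43, 6.23, 7.61 and 4.07 CPM in DMM1 to DMM5. It showed the split of the 7 genes, with DMM1 just below the lowest PBS library. Its log2 fold change over the 8 libraries was -2.72 ± 0.21 (SE, adjusted p 0.000188) by edgeR. Gm4951, a neighbour of Iigp1 on chromosome 18, was at 58.6, 52.3, 59.5, 64.0 and 71.8 CPM in PBS1 to PBS5 and 54.7, 13.2, 13.0, 11.5 and 9.36 CPM in DMM1 to DMM5, again with DMM1 in the PBS range, and fell by 2.39 on the log2 scale (adjusted p 0.000108 by edgeR). Gm5431, at -2.40 ± 0.28 (SE, adjusted p 0.0022), Gm12185, at -2.42 ± 0.37 (SE, adjusted p 0.00757), and 9930111J21Rik1, at -1.42 ± 0.26 (SE, adjusted p 0.0151), were called as well. The call for 9930111J21Rik1 was lost without PBS5 (log2 fold change -1.34, adjusted p 0.057) and without DMM3 (-1.39, adjusted p 0.0549).

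In some of the other tested IRG genes, though not in Gm4951, DMM4 stood apart from DMM2, DMM3 and DMM5. In 9930111J21Rik1 it was at 12.1 CPM, against 4.92 to 7.20 CPM. F830016B08Rik had 27.0 CPM in DMM4, against 6.44 to 9.14 CPM in DMM2, DMM3 and DMM5, and 9930111J21Rik2 had 41.7 CPM against 13.8 to 18.1 CPM. Over the 8 libraries they were not called by edgeR, at -1.48 ± 0.44 (SE, adjusted p 0.0838) and -1.16 ± 0.33 (SE, adjusted p 0.0688). Without DMM4 both were called, at -2.20 (adjusted p 8.55e-05) and -1.65 (adjusted p 2.92e-05). DESeq2 also called both over the 8, with adjusted p of 0.00825 and 0.00787. So did edgeR with library size alone, which called 7 of 8 other IRG genes lower, and edgeR without the filter on low counts, which called 7 of 10. Irgq, a relative with a divergent GTPase domain, was at 68.8 to 74.5 CPM in PBS kidneys and at 125 CPM in DMM4. The other DMM libraries had 71.2 to 80.0 CPM, and its log2 fold change was 0.27 ± 0.18 (SE, adjusted p 0.446) by edgeR. Irgc1, with at most 4 counts in any library, and Gm12187, with at most 9, did not pass the filter on low counts. By DESeq2 and by edgeR without that filter, 0 of these 2 were called in either set of libraries.

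**Figure D4:**
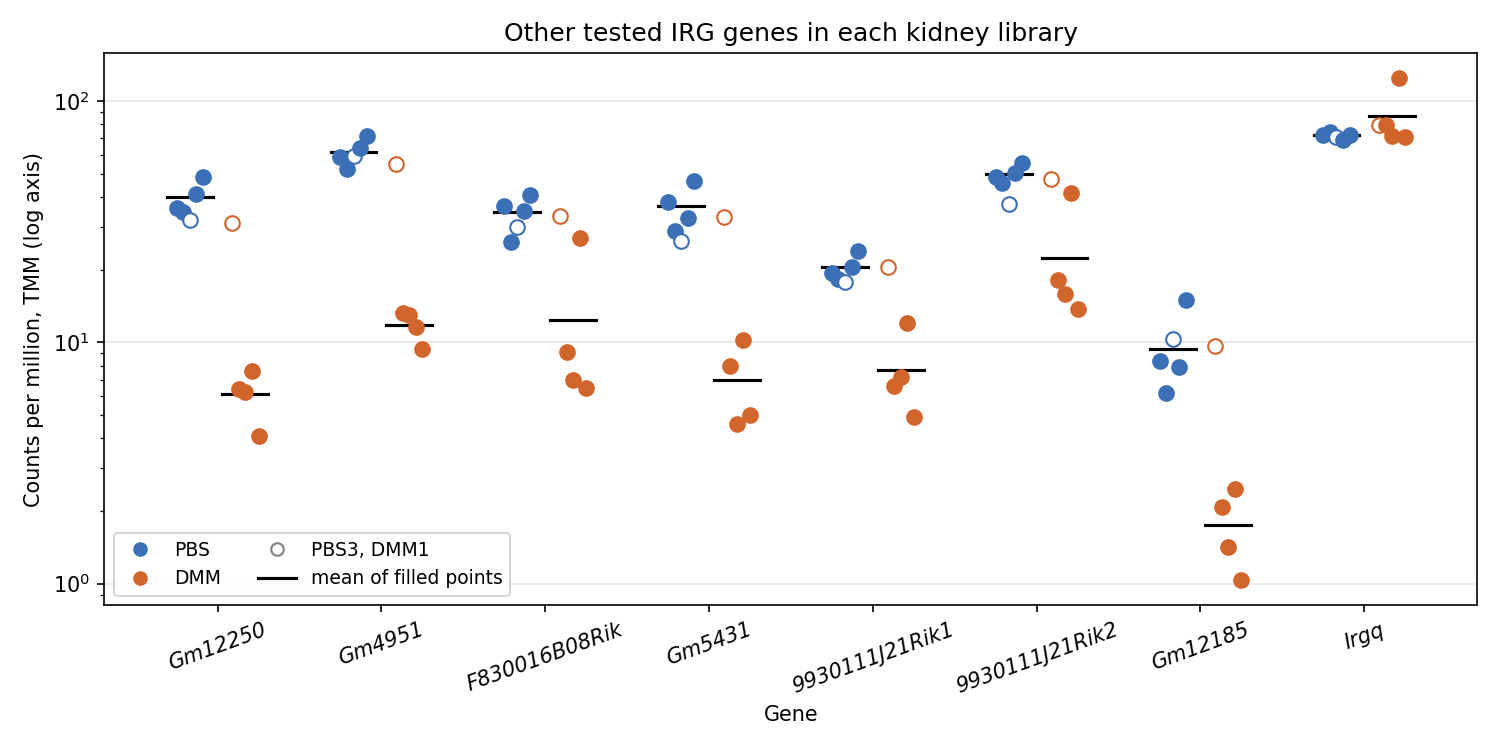
Level of the 8 other tested IRG genes in CPM (TMM-scaled counts, log axis) in 5 PBS (blue) and 5 DMM (orange) libraries, 1 point per library. Open points are PBS3 and DMM1, and bars are means of the 4 filled points of a group. F830016B08Rik and 9930111J21Rik2 have DMM4, at 27.0 and 41.7 CPM, apart from the other filled DMM points.

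Likeness to the 7 genes over the 10 libraries was measured as the root mean square difference in log2 CPM between a gene and the mean of the 7, each centred on its own mean. Outside the IRG lists, tested genes with small differences were Xaf1 (0.15), Rtp4 (0.16), Stat2 (0.18), Gbp6 (0.18), Gbp3 (0.19), Cmpk2 (0.21), Cxcl10 (0.21), Ifi204 (0.24) and Ifit2 (0.24). The 7 genes themselves were at 0.12 (Ifi47) to 0.25 (Tgtp2), and the median of all tested genes was 1.29. These values describe the pattern and carry no test.

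In the interferon pathway upstream, ligands were near the limit of detection. Of 19 ligand genes listed, 17 had 0 counts in every library. Ifng had at most 7 counts and was at 0.212, 0.353, 0.394, 0.319 and 0.412 CPM in PBS1 to PBS5 and 0.309, 0.252, 0.17, 0 and 0 CPM in DMM1 to DMM5, and Ifnk at most 5 counts. Neither passed the filter on low counts, and 0 of 2 were called by DESeq2 or by edgeR without that filter in either set of libraries. Of 9 receptor and kinase genes, 0 were called lower and 0 higher by edgeR, over the 8 and over all 10 libraries, and 0 by DESeq2. By the unadjusted rule (p below 0.05 and more than 1.5-fold) the count was 0 in both sets. Over all tested genes, edgeR called 3.56% lower and 2.73% higher over the 8. A count of 0 of 9 is near these shares, and nothing is read from it. The median log2 fold change of the 9 was -0.15 over 8 and -0.09 over 10 libraries. Ifnar2 had an adjusted p of 0.0489 over the 8 with a log2 fold change of -0.47 ± 0.12 (SE), which is under the fold change of a call. For 3 of the 9, every DMM library lay below every PBS library over the 8, against 10.6% of all tested genes.

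Of 14 transcription factors and brakes of the pathway listed, 9 were called lower over the 8 libraries by edgeR and 0 higher, with a median log2 fold change of -1.20. With all 10, 0 were called by edgeR and 0 by DESeq2, 8 were lower by the unadjusted rule, and the median was -0.83. Without DMM1, 8 of 14 were called lower, and over the 8 libraries DESeq2 called 10 of 14 lower. Those called over the 8 were the factors Stat2 (-2.39, adjusted p 0.000107), Irf9 (-1.33, adjusted p 0.00136), Irf1 (-1.39, adjusted p 0.0115), Irf5 (-1.06, adjusted p 0.0152), Irf7 (-3.61, adjusted p 0.00119) and Irf8 (-0.65, adjusted p 0.0296), and the activator of MHC class I genes Nlrc5 (-1.87, adjusted p 0.000188). The brakes Usp18 (-3.41, adjusted p 0.000108) and Socs1 (-2.44, adjusted p 0.0463) were called too, all as log2 fold changes by edgeR. The rest of the list, Stat3, Irf2, Irf3, Ciita and Socs3, was not called.

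Calls over the 8 libraries were lost for Socs1 without PBS1, PBS2, PBS4, PBS5, DMM2, DMM3 and DMM5, taken singly (adjusted p 0.0625 to 0.133) and for Irf5 without PBS5, DMM3 and DMM5, taken singly (adjusted p 0.052 to 0.0623). The call for Irf8 was lost without PBS1, PBS2, PBS4, PBS5, DMM3 and DMM5, taken singly (adjusted p 0.0706 to 0.103). It was also lost without DMM4, where its log2 fold change of -0.58 was under the fold change of a call. Ciita was called without DMM2 (-0.81, adjusted p 0.0443) and without DMM4 (-0.66, adjusted p 0.0319).

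Of 11 GBP genes listed, 10 were tested and 10 of 10 were called lower over the 8 libraries by edgeR, with a median log2 fold change of -1.99. All 10 libraries gave 0 calls by edgeR and 1 by DESeq2, 10 of 10 were lower by the unadjusted rule, and the median was -1.39. Without DMM1, 10 of 10 were called, and over the 8 libraries DESeq2 called 11 of 11. Gbp6, at -2.66 ± 0.17 (SE, adjusted p 0.000108), and Gbp3, at -2.39 ± 0.19 (SE, adjusted p 0.00023), had the smallest p. Gbp2, the most abundant by FPKM, was at 229, 213, 267, 278 and 386 CPM in PBS1 to PBS5 and 237, 75.6, 94.0, 68.4 and 60.8 CPM in DMM1 to DMM5. DMM1 was again in the PBS range and DMM2 to DMM5 below it, with -1.89 ± 0.22 (SE, adjusted p 0.00203) by edgeR. A call over the 8 libraries was lost for Gbp2b without PBS1, PBS2, PBS5, DMM2, DMM3 and DMM5, taken singly (adjusted p 0.0867 to 0.129). Of 5 GBP genes with a promoter window, 5 held the ISRE core and 2 the GAS core as well. Of 6 other IRG genes with a window, 3 held the ISRE core, 2 of them with the GAS core, and Gm5431, 9930111J21Rik2 and Irgq held neither.

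The autophagy genes whose products direct the effectors to vacuoles were counted in the same way. Of 12 genes of ATG conjugation listed, 0 were called lower and 0 higher by edgeR over the 8 and over all 10 libraries, 0 by the unadjusted rule (p below 0.05 and more than 1.5-fold), and 0 by DESeq2. Over all tested genes, edgeR called 3.56% lower and 2.73% higher over the 8 and 0% over all 10. A count of 0 of 12 is near these shares, and nothing is read from it. The median of their log2 fold changes was 0.02 over 8 and 0.03 over 10 libraries. Over the 8 these genes ranged from -0.22 to 0.54. Those with the smallest p were Atg5, at 0.19 ± 0.11 (SE, adjusted p 0.339), and Gabarapl1, which was also the most abundant by FPKM, at 0.54 ± 0.31 (SE, adjusted p 0.354). Without DMM4, Gabarapl1 was called higher, at 0.79 (adjusted p 0.0015 by edgeR).

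Marker genes of cell types differed in how they moved. Of 6 leukocyte genes, 4 were called lower over the 8 libraries by edgeR and 5 by DESeq2, and their summed level was 801, 706, 671, 764 and 851 CPM in PBS1 to PBS5 and 700.4, 496, 347, 492 and 363 CPM in DMM1 to DMM5. Itgb2, at -1.04 ± 0.16 (SE, adjusted p 0.00848), and Coro1a, at -0.92 ± 0.15 (SE, adjusted p 0.0107), had the smallest p, and Laptm5, at -0.74 ± 0.12 (SE, adjusted p 0.0108), was the most abundant by FPKM. The sum was lower in DMM2 to DMM5 than in any PBS library, by less than the IRG sum. Of 11 macrophage and monocyte genes, 4 were called lower by edgeR and 8 by DESeq2, with a sum of 2385, 2402, 1893, 2183 and 2590 CPM in PBS1 to PBS5 and 2239, 1526, 1201, 879 and 1219 CPM in DMM1 to DMM5. Here too DMM2 to DMM5 lay below the PBS libraries and DMM1 among them. Fcgr1, at -1.74 ± 0.15 (SE, adjusted p 0.000385), and Ly6c2, at -2.85 ± 0.43 (SE, adjusted p 0.00713), had the smallest p, and the most abundant by FPKM, Lyz2, was at -0.95 ± 0.28 (SE, adjusted p 0.079). The call for C1qb was lost without PBS1, PBS2, PBS4, PBS5, DMM2, DMM3 and DMM5, taken singly (adjusted p 0.0556 to 0.138).

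Of 10 T cell genes, edgeR called 1 lower, Cd4, at -1.19 ± 0.26 (SE, adjusted p 0.0271), and DESeq2 called 5, and the sum was 64.6, 66.4, 64.2, 53.5 and 93.2 CPM in PBS1 to PBS5 and 60.8, 52.4, 21.1, 24.9 and 27.2 CPM in DMM1 to DMM5. Over all tested genes, edgeR called 3.56% lower and DESeq2 3.02%, and nothing is read from the count of 1 of 10. Cd4 lost its call without PBS2, PBS4, PBS5, DMM3 and DMM5, taken singly (adjusted p 0.0546 to 0.0922), Cd3g was at -1.22 ± 0.36 (SE, adjusted p 0.0794), and Trbc2, the most abundant by FPKM, at -0.87 ± 0.40 (SE, adjusted p 0.243). Of 15 kidney epithelium genes, 6 were called higher by edgeR and 9 by DESeq2, with a sum of 4603, 4100, 7871, 2582 and 2856 CPM in PBS1 to PBS5 and 3842, 7032, 8179, 5884 and 9008 CPM in DMM1 to DMM5. PBS3 lay in the range of DMM2 to DMM5 here, and DMM1 among the other PBS libraries. Of 10 proximal tubule genes, 6 of which are also in the kidney list, 4 were called higher by edgeR and 9 by DESeq2, with a sum of 2012, 2070, 5063, 825 and 1561 CPM in PBS1 to PBS5 and 1454, 4182, 5006, 4520 and 6221 CPM in DMM1 to DMM5. Slc5a12, at 2.11 ± 0.33 (SE, adjusted p 0.00812), and Cubn, at 1.73 ± 0.30 (SE, adjusted p 0.0113), had the smallest p in both lists, and the most abundant by FPKM were Umod, at 0.62 ± 0.38 (SE, adjusted p 0.389), and Slc27a2, at 1.28 ± 0.37 (SE, adjusted p 0.0753). None of these kidney genes was at 0 in every library, and the tissue label is kidney.

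In the other lists, edgeR called 0 of 8 tested NK cell genes, 0 of 5 B cell genes, 0 of 4 tested neutrophil genes, 0 of 7 endothelial genes and 0 of 5 erythroid genes over the 8 libraries, and DESeq2 called 1, 1, 0, 0 and 5. By the unadjusted rule (p below 0.05 and more than 1.5-fold) the counts were 2, 1, 0, 0 and 5, against 1198 of 16550 genes lower (7.24%) and 1067 higher (6.45%), and nothing is read from the counts of 1 and 2. The same rule gave 5 of 6 leukocyte, 8 of 11 macrophage, 8 of 10 T cell and 3 of 7 fibroblast genes lower. It gave 9 of 15 kidney epithelium and 9 of 10 proximal tubule genes higher. The 5 erythroid genes passed that rule as higher in DMM kidneys, but the groups overlapped in each of them. Their sum was 135.6, 228.3, 230.1, 157.0 and 151.5 CPM in PBS1 to PBS5. In DMM1 to DMM5 it was 287.8, 215.9, 593.1, 787.7 and 275.7 CPM. Of 7 fibroblast genes, DESeq2 called 3 lower and edgeR 1, Col1a2, at -1.11 ± 0.22 (SE, adjusted p 0.0207), which lost its call without PBS2, PBS4, PBS5, DMM3 and DMM5, taken singly (adjusted p 0.0569 to 0.0702). Col1a1, the next by p and the most abundant by FPKM, was at -1.07 ± 0.31 (SE, adjusted p 0.075).

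The smallest p in these lists, as log2 fold changes by edgeR over the 8 libraries, belonged to Gzmb (-1.92, adjusted p 0.0902) and Gzma (-0.98, adjusted p 0.172) for NK cells, Pax5 (-1.10, adjusted p 0.0748) and Cd79a (-0.75, adjusted p 0.585) for B cells, Csf3r (-0.55, adjusted p 0.414) and Cxcr2 (0.61, adjusted p 0.802) for neutrophils, Flt1 (0.54, adjusted p 0.361) and Tie1 (-0.22, adjusted p 0.438) for endothelium and Hbb-bs (1.46, adjusted p 0.0598) and Alas2 (1.78, adjusted p 0.063) for erythroid cells. The most abundant by FPKM were Nkg7 (-1.15), Cd79b (-0.08), S100a9 (-0.12), Cdh5 (-0.16) and Hbb-bs. The number of marker genes called by edgeR depended on the libraries. Without DMM4 it was 6 of 6 for leukocytes, 9 of 11 for macrophages, 3 of 10 for T cells, 1 of 8 for NK cells, 1 of 5 for B cells and 3 of 7 for fibroblasts, all lower, and 12 of 15 for kidney epithelium, 9 of 10 for proximal tubule and 5 of 5 for erythroid cells, all higher. With 1 of the other 7 libraries left out, it was 4 for leukocytes, 3 for macrophages, 0 to 6 for T cells (6 without DMM2), 0 to 1 for NK cells, 0 for B cells, 0 to 1 for fibroblasts, 2 to 6 for kidney epithelium and 2 to 4 for proximal tubule (2 for both without PBS5), and 0 to 5 for erythroid cells (5 without DMM2). All genes called were 1281 of 16828 lower (7.61%) and 1129 higher (6.71%) without DMM4, 572 of 16923 lower (3.38%) and 377 higher (2.23%) without DMM2 and 276 of 16918 lower (1.63%) and 131 higher (0.774%) without PBS5. The 7 IRG genes were called in each case. With PBS3 put back, so that DMM1 alone was left out, 0 of 15 kidney epithelium, 0 of 10 proximal tubule and 0 of 7 fibroblast genes were called, against 4 of 6 leukocyte, 3 of 11 macrophage and 1 of 10 T cell genes, all lower. The part of any cell type in the fall of the IRG genes was not tested. Over all 10 libraries 0 genes of any cell type list were called by edgeR. By the unadjusted rule there were 4 of 6 leukocyte, 7 of 11 macrophage, 6 of 10 T cell and 3 of 8 NK cell genes lower, against 678 of 16505 genes lower (4.11%). Higher were 2 of 15 kidney epithelium, 2 of 10 proximal tubule and 5 of 5 erythroid genes, against 315 of 16505 genes higher (1.91%). DESeq2 called 1 erythroid gene higher over all 10.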

How the data were processed

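RNA of 10 UUO kidneys (5 PBS, labelled control, and 5 DMM) was sequenced on a NovaSeq X Plus. The submitters' processing notes name HISAT2 2.0.5 and mm10. The deposited values used were counts of reads per gene, without normalization. The authors deposited FPKM as well, which equals the count divided by gene length and a library constant and served only to compare genes. The deposited group means, a signal in normalized counts, were used only to find each library's weight. Deposited gene length is in base pairs. Their fold changes and p-values were not used.

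The 7 genes and all lists were chosen with earlier results of these data known. Counts were filtered by filterByExpr, scaled by TMM and tested by the quasi-likelihood F test of edgeR 4.0.16 (R 4.3.3, limma 3.58.1), adjusted by Benjamini-Hochberg over all tested genes. Log2 CPM used a prior count of 2. Named were the 7 genes, all detected other IRG genes and ligands, called receptors, kinases, factors and brakes, and from each other list the 2 genes of smallest p over the 8 libraries and the gene most abundant by mean FPKM. A listed gene is not reported here. Ratios of counts were picked after the levels were seen. An exact permutation test of them was run (SciPy 1.17.1), and its p-values are left out for that reason. Transcript overlaps came from GENCODE M21, in which 98.3% of the table's genes that it holds had the same start and end. Promoter windows were searched with Python 3.11.15 and aligned with Biopython 1.88, and figures drawn with matplotlib 3.10.9. Pandas 2.3.3 was used for tables.

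Alternatives were DESeq2 1.42.0, RLE size factors, library size alone, no filter on low counts, a CPM of at least 1 in 4 libraries, an adjusted p under 0.01, a fold change above 2, protein-coding genes alone, Tgtp1 and Tgtp2 summed, the replicate number as a block and leaving out each library in turn. The same alternatives for the other lists, and those for the ratios, were added after the data were seen. The steps were tested on simulated data.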

Additional observations from a re-analysis of the deposited data

Results flagged for a closer look

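In each group of libraries, the gap between the highest or lowest library and its nearest neighbour was compared with Dixon's limit for the group's size. Of 34 groups examined, for the IRG genes and the paired ratios, 13 had a library past the limit. Chance gives about 1 in 20. In 11 of the 13 the library was DMM1, which lay above the other 4 DMM libraries. Its values were 442 CPM for Irgm1, 278 CPM for Irgm2, 151 CPM for Igtp, 316 CPM for Iigp1, 123 CPM for Tgtp1, 79.1 CPM for Tgtp2 and 136 CPM for Ifi47. Among the other IRG genes, DMM1 had 31.4 CPM for Gm12250, 54.7 CPM for Gm4951, 33.0 CPM for Gm5431 and 9.63 CPM for Gm12185. These are measurements of a single library and are not independent of each other. The remaining cases were DMM4, with 125 CPM for Irgq and a ratio of Irgm2 to Igtp counts of 4.46. What set DMM1 and DMM4 apart was not tested.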

How the results depend on the processing

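Over the 8 libraries, 7 of 7 IRG genes were called lower under DESeq2, RLE size factors, library size alone, no filter on low counts, the CPM filter, protein-coding genes alone and both stricter thresholds, and 6 of 6 with Tgtp1 and Tgtp2 summed. The count was 7 with each library left out in turn. The replicate number as a block gave 0 of 7 with the 7 log2 fold changes between -2.99 and -2.28 and adjusted p between 0.0514 and 0.0758. The labels do not pair libraries by number, and deviations of libraries with the same number were correlated over genes at -0.06, 0.079, 0.341, 0.124 and -0.223. Over all 10 libraries the count was 0 under the same alternatives and 0 to 7 with each library left out, 7 being the count without DMM1.

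With each of the 8 libraries left out, the log2 fold change ranged from -2.33 to -2.17 for Irgm1, -2.24 to -2.03 for Irgm2, -2.85 to -2.47 for Igtp, -2.61 to -2.37 for Iigp1, -2.91 to -2.47 for Tgtp1, -3.14 to -2.77 for Tgtp2, -2.74 to -2.50 for Ifi47. Over all 10 it ranged from -2.27 to -1.37 for Irgm1, -2.18 to -1.31 for Irgm2, -2.71 to -1.57 for Igtp, -2.52 to -1.47 for Iigp1, -2.69 to -1.56 for Tgtp1, -2.90 to -1.52 for Tgtp2, -2.55 to -1.49 for Ifi47, the lower end being without DMM1 in each. Of 870 comparisons of a result with an alternative, 826 stayed on their side of the threshold or within 1.5 times the count. No fold change or ratio among them changed direction, while counts of calls have no direction and could not reverse. For the 7 genes over all 10 libraries, 118 of 125 comparisons were the same because genes not called stayed uncalled. The total of 826 is therefore no measure of robustness. The 8 libraries gave 911 genes lower and 749 higher by DESeq2, 700 and 276 by library size alone, 219 and 73 at an adjusted p under 0.01, 373 and 246 at a fold change above 2, and 0 and 0 with the block. Leaving out PBS1, PBS2, PBS4, PBS5, DMM3, DMM4 and DMM5 singly gave 367, 349, 317, 276, 308, 1281 and 302 lower and 225, 198, 160, 131, 186, 1129 and 168 higher. Of the pathway lists, the block gave 0 calls for the GBP genes and for transcription factors and brakes, and an adjusted p under 0.01 left 5 of the latter.

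Limits were the depth for ligands, of which Ifng reached 7 counts, reads that Tgtp1 and Tgtp2 share, and counts whose strand is unknown. With 4 to 5 libraries a group and bulk RNA, the cells that lost or kept IRG transcripts were not measured, and protein was not measured. The IRG calls rest on DMM1 being left out, and the kidney epithelium, proximal tubule and fibroblast calls on PBS3 being left out as well.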
